A study of Mus musculus with 3 samples.

Results

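The genes described here make, take up and sense cholesterol, and were chosen by a list of 32 gene symbols, of which 28 had a named transcript cluster among the 22206 clusters of the array. A transcript cluster is a set of probes read as one gene. The 28 consisted of 17 enzymes of cholesterol synthesis, 8 genes of SREBP2 control and uptake, and 3 genes of the liver X receptor (LXR) and efflux. Acat2, Tm7sf2, Nr1h2 and Soat1 matched no cluster by symbol, gene ID or transcript accession and were not analysed here.

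Expression was measured in alveolar type 2 (AT2) cells of female Sftpc/GFP mice on a CBA/Ca × C57BL6J background. In this line GFP is strong in AT2 cells and weak in a few cells of the bronchioalveolar duct junction and terminal bronchioles, and the cells were sorted for high GFP and for high EpCAM, which marks epithelium. Mice inhaled air, or cigarette smoke (CS) for 3 weeks in a continuous or an intermittent pattern. The CS mice were 9 to 11 weeks old, and the air mice were matched to them in age. The diagram of the study's protocol draws the smoke weeks as consecutive for continuous CS and as alternating with weeks of air for intermittent CS. CS was given for 60 min/day on 5 days/week, and the mice were killed 24 h after the last exposure. AT2 cells of 3 mice per group were pooled and hybridized to 1 GeneChip Clariom S array, so no group has a replicate. The differences below therefore carry no error and no test, and their precision is limited by the number of arrays. Between pairs of arrays, 99% of 1414 clusters of receptors of smell and pheromones (olfactory and vomeronasal) lay within 1.68- to 1.85-fold of each other. These clusters are dim, and the spread of bright clusters without a change is not known.

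Cells build cholesterol from acetyl-CoA by way of mevalonate, farnesyl diphosphate and squalene. When sterols in the endoplasmic reticulum are low, SCAP carries the membrane-bound transcription factor SREBP2 to the Golgi, where it is cut and released to switch on the genes of synthesis and uptake. INSIG proteins hold SCAP back when sterols are plentiful, and LXR, which oxysterols activate, switches on the export of cholesterol. In the lung, AT2 cells secrete surfactant, whose lipid holds cholesterol beside phospholipids.

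All 28 genes lay above the receptor background, the 95th percentile of the receptor clusters, on all 3 arrays, with log2 values from 6.21 to 16.64 against a background of 5.14 to 5.19. Of 14 AT2 markers 13 were measured. All 13 lay above the background on every array and reached log2 values of 13.25 or more, and 4 of them, Sftpc, Sftpb, Sftpa1 and Slc34a2, were at the highest value of the data, 19.93.

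**Figure D1:**
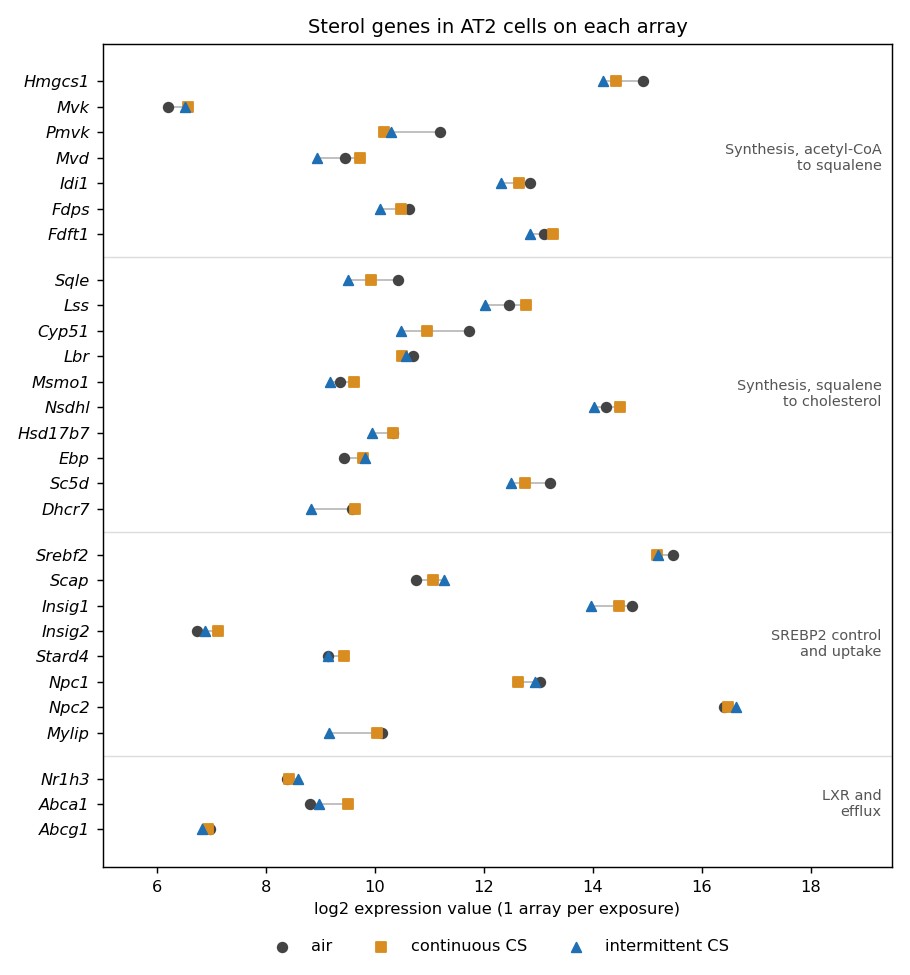
Log2 expression values (horizontal axis) of the 28 measured genes in pathway order, with circles for the air array, squares for continuous CS and triangles for intermittent CS, and a line joining the lowest and highest value of a gene. For 13 of the 17 synthesis enzymes the intermittent CS triangle is the lowest of the 3 points.

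The synthesis enzymes were lower after intermittent CS. Compared to air, 15 of the 17 enzymes were lower after intermittent CS, 6 of them by at least 1.5-fold, and the median log2 difference was -0.51. Compared to continuous CS, 14 of the 17 were lower, 3 by at least 1.5-fold, and the median was -0.39. With continuous CS compared to air, 9 were lower and 8 higher, and the median was -0.0083. Over all clusters the median was 0.00 in each comparison. Of the 12452 clusters with a mean above the receptor background, 39.9% were lower after intermittent CS than in air and 37.6% lower than after continuous CS, against 88.2% and 82.4% of the synthesis enzymes. In these comparisons 18.8% and 23.1% of the 12452 clusters held exactly equal values on both arrays, and none of the enzymes did. Both comparisons share the intermittent CS array.

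Over all members, 8 of 28 were at least 1.5-fold lower after intermittent CS than in air and none was 1.5-fold higher, where 3.43% and 3.33% of all clusters were lower and higher by that much. By at least 2-fold, 1 member was lower and none was higher, with 0.716% and 0.833% of all clusters. With intermittent CS compared to continuous CS, 4 of 28 fell below by 1.5-fold or more, with none above by as much, against 2.67% and 1.27% of all clusters. No member was 2-fold apart between the CS arrays, where 0.635% of all clusters were 2-fold lower and 0.117% 2-fold higher. With continuous CS compared to air, 1 member lay 1.5-fold or more above and 2 lay below, against 3.78% and 2.75% of all clusters. By at least 2-fold none was higher and 1 was lower, with 1.13% and 0.473% of all clusters. All 28 members lay above the receptor background. Of the 12452 clusters with a mean above it, 4.58% were 1.5-fold lower and 4.85% higher for intermittent CS minus air. These shares were 3.41% and 1.27% for intermittent minus continuous CS, and 3.52% and 5.44% for continuous CS minus air. At 2-fold they were 1.18% and 1.33%, 1.03% and 0.104%, and 0.747% and 1.82% in the same order of comparisons.

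**Figure D2:**
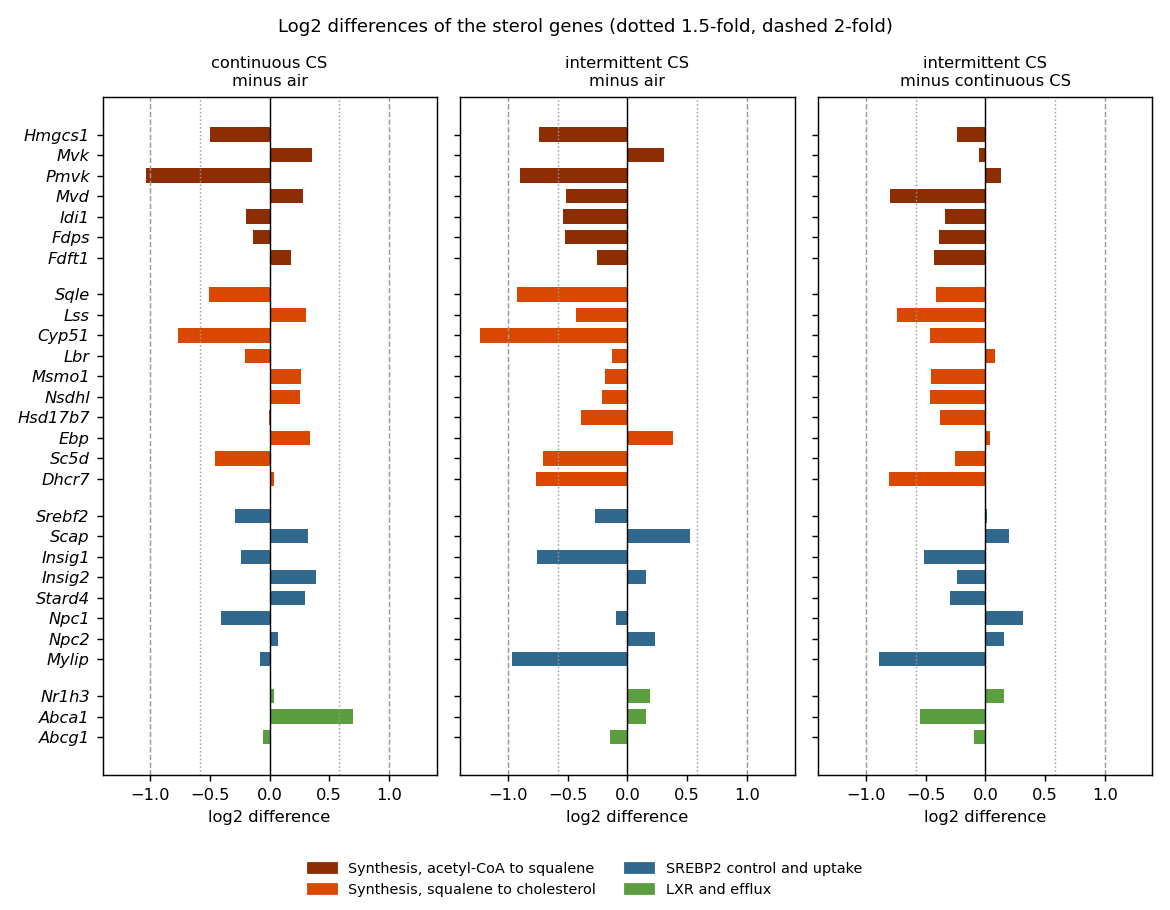
Log2 difference (horizontal axis) of each gene for the 3 pairs of arrays, colored by role, with dotted lines at 1.5-fold and dashed lines at 2-fold. The bars of the synthesis enzymes point both ways for continuous CS minus air and mostly left for both comparisons of intermittent CS.

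Early in the pathway, Hmgcs1, which joins acetyl-CoA and acetoacetyl-CoA to HMG-CoA, was at a log2 value of 14.93 in air, 14.43 after continuous CS and 14.19 after intermittent CS. It was 1.42-fold lower than air after continuous CS and 1.67-fold lower after intermittent CS. Pmvk, the phosphomevalonate kinase, was at 11.20 in air, 10.16 after continuous CS and 10.29 after intermittent CS. It was the only member at least 2-fold lower after continuous CS than in air, at 2.05-fold, and it was 1.87-fold lower after intermittent CS. Unlike most enzymes, Pmvk lay almost level on the CS arrays, and without it 14 of the other 16 enzymes were lower after intermittent CS than in air, with a median of -0.47.

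Mvd, which turns mevalonate diphosphate into isopentenyl diphosphate, was at 9.44 in air, 9.73 after continuous CS and 8.93 after intermittent CS. It was 1.74-fold lower after intermittent than after continuous CS and 1.43-fold lower than in air. Idi1, the isomerase of isopentenyl diphosphate, was at 12.85, 12.65 and 12.31 in the same order, and Fdps, which makes farnesyl diphosphate, was at 10.62, 10.48 and 10.10. Both fell short of 1.5-fold, at 1.45-fold and 1.44-fold lower after intermittent CS than in air. Of the other 2 enzymes up to squalene, the squalene synthase gene Fdft1 was 1.19-fold lower after intermittent CS than in air, and the mevalonate kinase gene Mvk was 1.24-fold higher.

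From squalene onward, Cyp51, the lanosterol demethylase, differed most from air. It was at 11.72 in air, 10.95 after continuous CS and 10.49 after intermittent CS, and was 2.36-fold lower after intermittent CS than in air. Only 0.38% of all clusters had a lower difference in this comparison. Sqle, the squalene epoxidase that makes the first oxygenation of the pathway, was at 10.43, 9.92 and 9.51 in the same order, 1.90-fold lower after intermittent CS than in air. Sc5d, a sterol desaturase of the late pathway, was at 13.21, 12.75 and 12.50, and 1.64-fold lower. These 3 genes and Hmgcs1 were lower after continuous CS than in air and lower again after intermittent CS.

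Dhcr7, which reduces 7-dehydrocholesterol to cholesterol, was at 9.59 in air, 9.63 after continuous CS and 8.82 after intermittent CS. It was 1.70-fold lower after intermittent CS than in air and 1.75-fold lower than after continuous CS. Lss, which closes the ring system of lanosterol, was at 12.46, 12.77 and 12.03 in the same order, and 1.67-fold lower after intermittent than after continuous CS. Both genes were highest after continuous CS, above air by 0.041 on the log2 scale for Dhcr7 and by 0.31 for Lss. Of the other 5 late enzymes, Msmo1 and Nsdhl, which act together in removing the methyl groups at carbon 4 of the sterol ring, were 1.37-fold and 1.38-fold lower after intermittent than after continuous CS. Hsd17b7, the ketosteroid reductase of the same step, was 1.30-fold lower. Lbr, a nuclear envelope protein with sterol reductase activity, and the sterol isomerase gene Ebp were higher by 0.08 and 0.04 on the log2 scale after intermittent than after continuous CS, and Ebp was 1.30-fold higher than in air.

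Most enzymes shared the lowest array, and no single order of all 3 arrays held for most of them. The intermittent CS array was the lowest for 13 of the 17 (76.5%), the air array for 2 and the continuous CS array for 2. Among all clusters above the receptor background the intermittent CS array was lowest for 22.8%. In 7 of the 13 enzymes air was highest and continuous CS lay between, and in 6 continuous CS was highest and air lay between. These orders were found in 11.5% and 6.93% of the clusters above background.

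**Figure D3:**
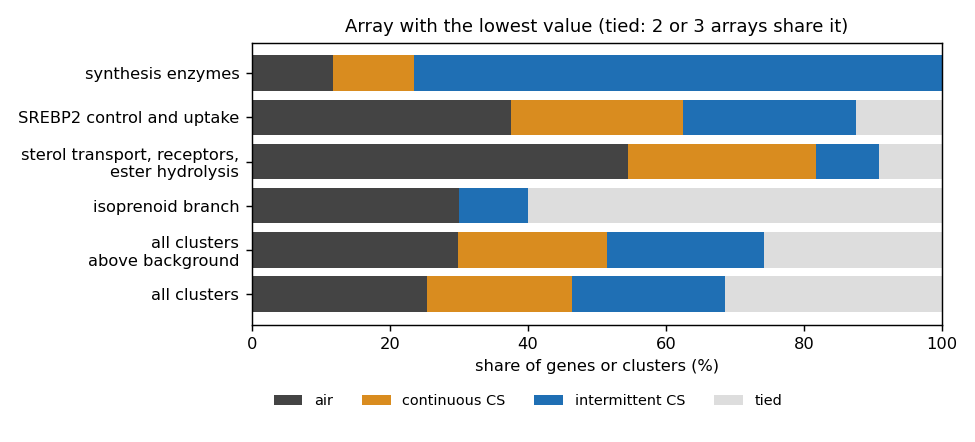
Share of genes or clusters (horizontal axis, percent) whose lowest value lay on the air, continuous CS or intermittent CS array, or was tied between arrays. The intermittent CS array holds the lowest value of 76.5% of the synthesis enzymes and of 22.8% of all clusters above background.

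Of the 8 genes of SREBP2 control and uptake, Insig1 and Mylip had the same order of arrays as 7 of the enzymes. This order was found in 11.5% of the clusters above background. Insig1, which retains SCAP and is itself a target of SREBP2, was at 14.73 in air, 14.49 after continuous CS and 13.97 after intermittent CS. It was 1.69-fold lower after intermittent CS than in air and 1.43-fold lower than after continuous CS. Srebf2, which encodes SREBP2, was at 15.46, 15.18 and 15.19 in the same order and did not differ between the CS arrays by more than 1.01-fold. Scap was at 10.75, 11.07 and 11.27, and so was 1.44-fold higher after intermittent CS than in air. Insig2, the second INSIG gene, was highest after continuous CS, at 7.12, against 6.73 in air and 6.89 after intermittent CS.

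Mylip encodes the ubiquitin ligase that marks lipoprotein receptors of the LDL receptor family for degradation, and is an LXR target. It was at 10.12 in air, 10.05 after continuous CS and 9.15 after intermittent CS. The values in air and continuous CS lay close together, and intermittent CS was 1.96-fold and 1.86-fold below them. Only 0.77% and 0.88% of all clusters had a lower difference. Stard4, a carrier of sterols between membranes, held the same value in air and intermittent CS, 9.14, and was 1.23-fold higher after continuous CS. Of the genes that move cholesterol out of lysosomes, Npc1 was 1.33-fold lower after continuous CS and 1.07-fold lower after intermittent CS than in air, and Npc2 was 1.17-fold higher after intermittent CS. For the 8 genes of SREBP2 control and uptake the median log2 difference between continuous CS and air was -0.0016. It was -0.047 between intermittent CS and air. Between the CS arrays it was -0.11, and 0.0167, the opposite sign, with Mylip counted under LXR and efflux.

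Of the LXR and efflux genes, Abca1, which exports cholesterol and phospholipid to apolipoproteins, was at 8.82 in air, 9.51 after continuous CS and 8.97 after intermittent CS. It was 1.62-fold higher after continuous CS than in air, the only member past 1.5-fold in that direction, and 1.46-fold lower after intermittent than after continuous CS. Nr1h3, which encodes LXRalpha, was at 8.39, 8.43 and 8.58 in the same order. Abcg1, an exporter of cholesterol to lipoprotein particles, was at 6.98, 6.93 and 6.83. Neither differed by more than 1.14-fold between any arrays.

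**Figure D4:**
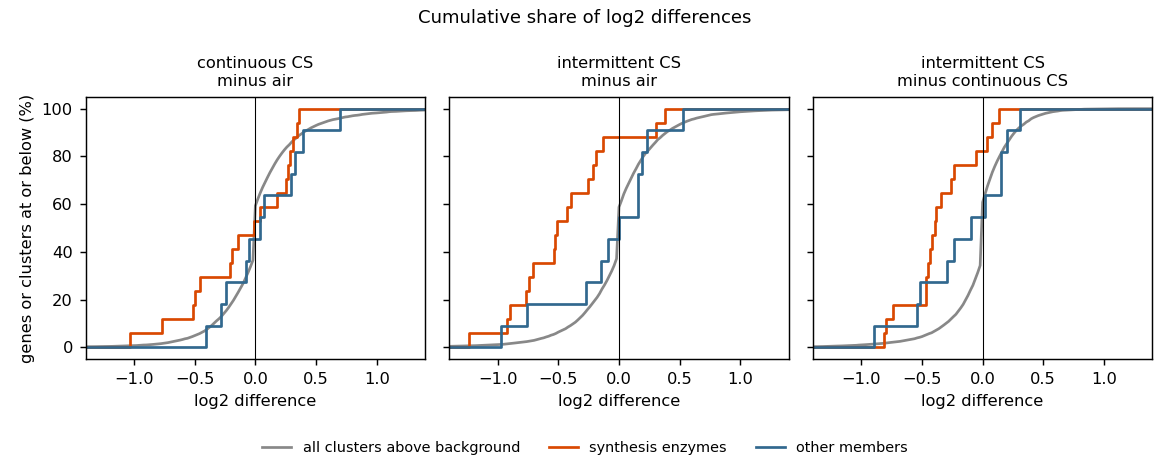
Cumulative share (vertical axis, percent) of genes or clusters at or below a log2 difference (horizontal axis) for the synthesis enzymes, the other 11 measured members and all 12452 clusters above background. The curve of the synthesis enzymes lies left of the other curves over most of its range for intermittent CS minus air, where its median is -0.51.

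The promoters of the members were also read for short motifs. Windows of 300 bases, from 250 before to 50 after an annotated transcript start, were taken from RefSeq (build GRCm38.p6), and 26 of the 32 members had at least 1. The others were Fdps, Fdft1, Sqle, Stard4, Npc1 and Abcg1. A gene was counted where any of its windows held the motif. The 16 synthesis enzymes with a window include Acat2 and Tm7sf2, which had no cluster. In sterol-regulated promoters SREBP2 binds sterol response elements together with the factors NF-Y, which binds CCAAT, and SP1, which binds GC boxes. A CCAAT box was found on either strand in 15 of 16 synthesis enzymes (93.8%), against 42.8% of 9098 genes whose cluster lay above the receptor background and 41.1% of all 27025 genes with a window. A GC box, GGGCGG, was found in 15 of 16, against 66.5% and 38.2%. Of the 6 genes of SREBP2 control and uptake with a window, 5 held a CCAAT box and all 6 a GC box. The sterol response core TCACNCCAC was found in 1 of the 16, Hmgcs1, and in 1.30% and 1.44% of the genes compared. The E-box CACGTG was in 3 of 16 (18.8%), against 11.5% and 8.09%. A pair of AGGTCA repeats spaced by 4 bases, the form that LXR binds, with up to 2 mismatches in its 12 fixed bases, was in 1 of 16, and in 2.80% and 3.47%. It was in none of the 4 LXR and efflux genes with a window, Abca1 among them. A match is only a match of letters, and a window without one gives no information on the factor.

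The windows below belong to the members with a single window that were at least 1.5-fold lower after intermittent CS than in air, and show how the boxes are placed. Capitals mark the CCAAT box, written ATTGG where it lies on the other strand, and in Hmgcs1 also the sterol response core, and the marked boxes do not overlap.
Hmgcs1, chr13:119690101-119690400, plus strand: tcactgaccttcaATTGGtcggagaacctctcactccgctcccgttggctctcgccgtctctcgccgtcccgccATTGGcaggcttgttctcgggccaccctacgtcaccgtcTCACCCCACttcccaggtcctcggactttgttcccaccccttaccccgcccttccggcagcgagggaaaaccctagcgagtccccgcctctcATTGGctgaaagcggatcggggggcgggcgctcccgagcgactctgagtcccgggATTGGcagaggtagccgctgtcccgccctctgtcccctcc
Cyp51, chr5:4104648-4104947, minus strand: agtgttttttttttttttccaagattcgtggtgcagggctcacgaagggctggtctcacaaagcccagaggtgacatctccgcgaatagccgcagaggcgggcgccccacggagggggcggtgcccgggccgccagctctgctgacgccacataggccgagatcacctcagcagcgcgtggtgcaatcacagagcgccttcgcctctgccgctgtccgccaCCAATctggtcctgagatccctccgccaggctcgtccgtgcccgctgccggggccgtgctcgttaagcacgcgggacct
Sc5d, chr9:42264251-42264550, minus strand: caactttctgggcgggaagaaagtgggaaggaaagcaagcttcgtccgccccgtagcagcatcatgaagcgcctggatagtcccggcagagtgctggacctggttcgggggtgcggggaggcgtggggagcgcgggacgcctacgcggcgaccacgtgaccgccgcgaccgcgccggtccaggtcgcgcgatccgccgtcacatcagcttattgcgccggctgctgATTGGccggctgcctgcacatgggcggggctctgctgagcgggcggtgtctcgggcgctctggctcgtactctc
Insig1, chr5:28071162-28071461, plus strand: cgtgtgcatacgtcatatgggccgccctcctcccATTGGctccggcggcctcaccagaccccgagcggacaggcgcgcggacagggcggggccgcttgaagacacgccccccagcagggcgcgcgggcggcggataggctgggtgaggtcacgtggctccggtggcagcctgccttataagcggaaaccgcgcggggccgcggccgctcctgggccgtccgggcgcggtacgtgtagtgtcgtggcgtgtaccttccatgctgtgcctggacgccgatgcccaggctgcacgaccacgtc
Mylip, chr13:45389492-45389791, plus strand: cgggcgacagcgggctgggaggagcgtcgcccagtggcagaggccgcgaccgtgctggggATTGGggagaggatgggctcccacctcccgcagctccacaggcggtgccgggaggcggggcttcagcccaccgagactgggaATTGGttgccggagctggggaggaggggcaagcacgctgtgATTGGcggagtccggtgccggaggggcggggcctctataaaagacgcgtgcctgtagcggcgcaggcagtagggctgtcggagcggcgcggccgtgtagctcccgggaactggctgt
Hmgcs1 held 4 CCAAT boxes, with the sterol response core at position -137 from the transcript start. Cyp51, Sc5d and Insig1 held 1 CCAAT box each. The window of Mylip, which lies outside the synthesis pathway, held 3. The windows of Mvk and Ebp, the enzymes that were higher after intermittent CS than in air, held 5 and 2.

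Lists of neighboring genes had medians of 0.00 or above for intermittent CS minus air. Of the 8 measured genes of SREBP processing and sterol-regulated degradation, 5 were higher and 2 lower after intermittent CS than in air, none by 1.5-fold, and the median log2 difference was 0.11. The 10 measured genes of the isoprenoid branch, which leaves the pathway at farnesyl diphosphate, had a median of 0.00 in all comparisons. In this list Dhdds, a subunit of the enzyme that makes dolichol precursors, was 1.78-fold and 1.65-fold higher after continuous and intermittent CS than in air, at log2 values of 9.05 in air, 9.88 and 9.77. Rce1, the protease that trims prenylated proteins, was 2.01-fold lower on both CS arrays, at 8.80 in air and 7.79 on either of them.

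Of 22 genes of sterol transport, lipoprotein receptors and ester hydrolysis, 17 were higher and 2 lower after intermittent CS than in air, with a median of 0.16. Of the 12452 clusters with a mean above the receptor background, 41.3% were higher and 39.9% lower in this comparison. The intermittent CS array was the highest for 12 of the 22 genes and the lowest for 2, against 24.2% and 22.8% of these clusters. Osbpl2 and Osbpl6 encode oxysterol-binding protein relatives. Osbpl2 was at 10.34 in air, 11.29 after continuous CS and 11.44 after intermittent CS, 2.14-fold higher after intermittent CS than in air. Osbpl6 was at 9.26, 10.03 and 9.91, 1.70-fold and 1.57-fold higher than air. Lrp1, an endocytic receptor of lipoproteins, was at 6.50, 7.26 and 6.18, 2.11-fold lower after intermittent than after continuous CS. The 13 measured oxysterol and LXR partner genes had a median of 0.00 in all comparisons, but 7 of them lay below the receptor background on all 3 arrays and give no information on a change.

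**Figure D5:**
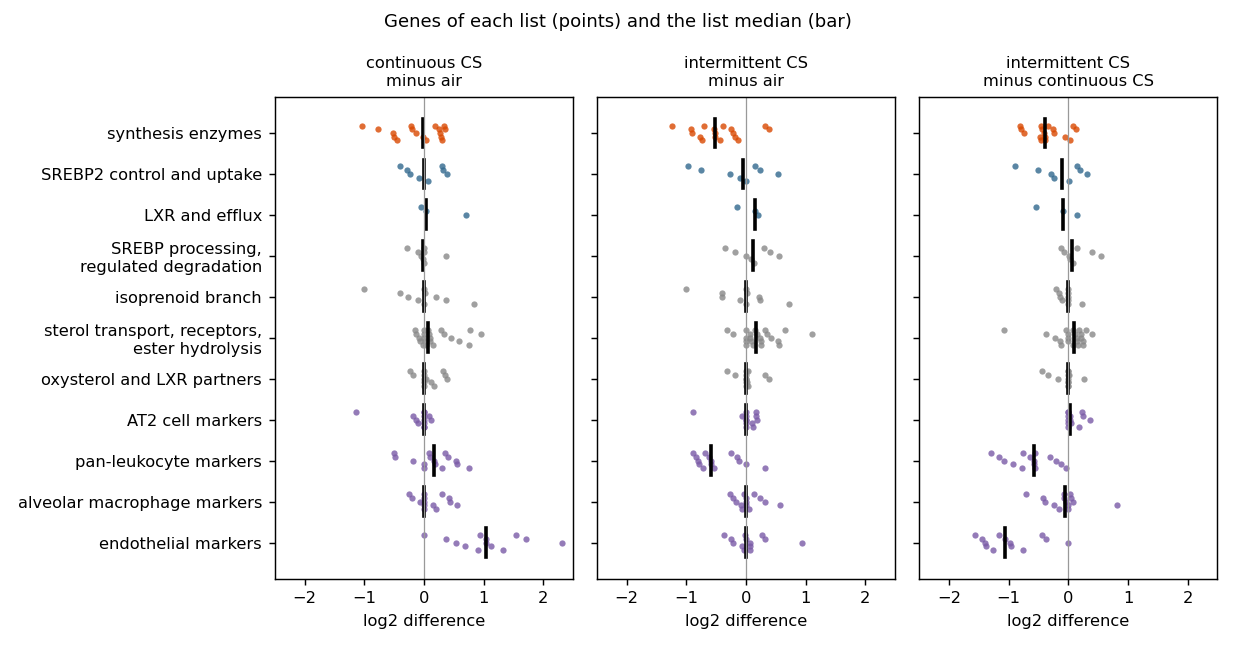
Log2 differences (horizontal axis) of single genes (points) and list medians (black bars) for the sterol gene groups, the neighboring pathway lists and markers of AT2 cells and other cells. The bar of the synthesis enzymes lies at -0.51 and -0.39 in the comparisons of intermittent CS, and that of the pan-leukocyte markers at -0.58 in both.

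Markers of other cells moved in the same comparisons. In a pooled sort, fewer cells of a type and less RNA per cell cannot be told apart. With intermittent CS compared to air, 13 of 15 measured pan-leukocyte markers were lower, with a median log2 difference of -0.58, as were 8 of 11 neutrophil markers (-0.59). With intermittent compared to continuous CS, all 15 pan-leukocyte markers, 10 of 11 neutrophil markers and 12 of 13 endothelial markers were lower, with medians of -0.58, -0.98 and -1.05. The log2 of the summed linear level in air, continuous CS and intermittent CS was 15.51, 15.76 and 15.50 for pan-leukocyte markers, 10.26, 10.79 and 9.41 for neutrophil markers, and 13.49, 14.54 and 13.41 for endothelial markers. Lcp1, the L-plastin gene, was the only pan-leukocyte marker higher after intermittent CS than in air, at 14.79, 15.14 and 15.10, and without it the pan-leukocyte sum was 14.17, 14.23 and 13.44. With intermittent CS, 3 of the 15 pan-leukocyte and 6 of the 11 neutrophil markers lay below the receptor background, and none of the endothelial markers did. Their part in the lower enzyme values was not tested.

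The 14 measured alveolar macrophage markers had a median of 0.00 for intermittent CS minus air and -0.05 for intermittent minus continuous CS, and 4 of them lay below the receptor background after intermittent CS. Their summed level was 13.06, 13.15 and 13.27 in the same order, and 12.34, 12.62 and 12.26 without Plin2, a lipid droplet gene that other cells also express. Compared to air, continuous CS was higher in 12 of 13 endothelial markers (median 1.03), 8 of 9 AT1 markers (0.61), 7 of 11 markers of fibroblasts and smooth muscle (0.59), 5 of 7 club cell markers (0.41) and 9 of 11 neutrophil markers (0.24). Abca1 was also higher in this comparison, and the part of RNA from these cells in its value was not tested. For intermittent minus continuous CS, the median was -0.05 and the mean -0.39 for 11 markers of fibroblasts and smooth muscle, 3 of which were at least 2-fold lower, and their summed level was 13.82 after continuous CS and 12.61 after intermittent CS. The median was -0.61 for 9 markers of AT1 cells and -0.41 for 7 markers of club cells. For the 13 AT2 markers it was 0.024, with 8 higher, 5 equal and none lower. Of the 5 equal markers 4 were at the highest value of the data, where a difference cannot be seen. For intermittent CS minus air the median was 0.00. Among the AT2 markers Hc, the complement C5 gene, was 2.19-fold and 1.85-fold lower after continuous and intermittent CS than in air.

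The air array also stood apart in the circadian clock, and genes of cholesterol synthesis follow a daily rhythm in liver. Dbp, a clock output gene, was at 9.67 in air, 18.02 after continuous CS and 17.93 after intermittent CS, and the clock activator gene Arntl was at 12.03, 7.01 and 6.56. The part of the clock in the differences from air was not tested. Between the CS arrays Dbp differed by -0.09 and Arntl by -0.45 on the log2 scale. The part of the clock in the enzyme differences between these 2 arrays was not tested either.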

How the data were processed

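Gene expression was measured on 1 GeneChip Clariom S array per exposure. With the Transcriptome Analysis Console, the authors made the log2 values that they deposited for 22206 transcript clusters. Its version and the summarization and normalization were not stated in the sources used here. Differences were taken between the arrays without rescaling. Calls were counted at 1.5-fold and 2-fold, without a test, since each group has 1 array. An array has no count of reads behind its values.

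Gene symbols came from the annotation of the platform, with 19572 clusters carrying 1 symbol (19505 genes) and 2634 none. No member had more than 1 cluster. Members, pathway lists and markers were chosen with earlier results of these data known. Members at least 1.4-fold apart between any arrays were described with all 3 values. Of the pathway lists, genes at least 1.5-fold apart were named. Lcp1, Plin2, Hc, Dbp and Arntl were chosen after their values were seen.

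Alternatives were median centring, quantile and cyclic loess normalization, an offset of 32 on the linear scale, a filter and a floor at the receptor background, averaging a gene's clusters, the mean of a list, and Mylip counted under LXR and efflux. Normalization ran in limma 3.58.1 (R 4.3.3), and other steps in Python 3.11.15 with pandas 2.3.3, numpy 2.4.6 and matplotlib 3.10.9. The counting steps were tested on simulated data, with planted differences larger than any member's and noise below the spread of the receptor clusters. That run checks the code and not the differences reported here.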

Additional observations from a re-analysis of the deposited data

How the results depend on the processing

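Each array is 1 pooled sample, so the spread between mice is unknown. Under median centring, quantile and cyclic loess normalization and the offset, 15 of 17 synthesis enzymes stayed lower after intermittent CS than in air and 14 of 17 lower than after continuous CS. Under these alternatives no median of the role groups moved by more than 0.1 on the log2 scale, and no count of members at 1.5-fold or 2-fold left 1.5 times its value. The filter, the floor and averaging a gene's clusters could change no value, since all 28 members lay above the receptor background and none had several clusters. Counting Mylip under LXR and efflux changed the median of SREBP2 control and uptake for intermittent minus continuous CS to 0.0167, the opposite sign, and that of LXR and efflux to -0.32, and to 0.0031 for intermittent CS minus air. With the mean in place of the median, SREBP2 control and uptake was at -0.15 for intermittent CS minus air, and LXR and efflux at 0.23 for continuous CS minus air. These groups have 8 and 3 measured genes, so 1 gene moves them.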
